A study of Mus musculus with 35 samples.

Results

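The 10 genes described here encode the collagens of basement membranes and of the finer networks around cells, and were chosen by their gene symbols out of the 55487 genes of the deposited tables. Col4a1 and Col4a2 encode the chains of collagen IV, Col6a1, Col6a2 and Col6a3 those of collagen VI, and Col8a1 a chain of collagen VIII. Col12a1 and Col14a1 encode collagens XII and XIV, and Col15a1 and Col18a1 encode collagens XV and XVIII. All 10 were measured in each of 35 RNA-seq libraries and passed the filter on low counts in every comparison.

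These collagens do not form the thick fibrils of collagens I and III. Collagen IV chains wind into a triple helix whose ends join into a sheet, the scaffold of every basement membrane, and collagen VI assembles into beaded microfilaments between basement membrane and interstitium. Collagen VIII, a short-chain collagen, forms open lattices in vessel walls. Collagens XII and XIV sit on the surface of fibrils, while collagens XV and XVIII carry heparan sulfate or chondroitin sulfate chains in the basement membrane zone and release endostatin-like fragments. In the heart, cardiomyocytes and capillaries each rest on a basement membrane, and fibroblasts, endothelial cells and mural cells all make parts of it.

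The study asked what the micropeptide IAMP, encoded by 4930523C07Rik, does in cardiac fibroblasts (CFs). Primary CFs from adult mice, isolated enzymatically and plated on collagen-coated plates, received a control siRNA (Scrambled) or either of 2 siRNAs against IAMP (IAMP-siR-1 and IAMP-siR-2). Each siRNA was used in untreated CFs, in CFs given IL-17 and in CFs given TGF-β, which makes 9 groups of 3 libraries. For the IL-17 cells the labels give 24 h of siRNA followed by 24 h of IL-17, and for the other cells no time was found in the sources used here. Whole hearts of 4 IAMP-HET and 4 IAMP-KO mice, C57BL/6, 8 weeks old and not stressed, complete the series. The KO allele is a germline frameshift, so all cell types of the heart carry it and the transcript level does not test it. The labels do not say whether libraries of a group came from separate cultures, and p-values then measure only the spread between these libraries, which may be technical.

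CF libraries held 104139670 to 119232309 estimated counts, and heart libraries 23497027 to 23857313 counts. 4930523C07Rik stood at 23.5 ± 1.98 CPM (counts scaled to the size of each library; mean ± SD, n = 3) in untreated Scrambled CFs, at 3.01 with IAMP-siR-1 and at 1.84 with IAMP-siR-2. With TGF-β the corresponding levels were 20.4, 4.33 and 3.26 CPM, and with IL-17 they were 18.7, 2.61 and 1.75 CPM. The summed level of 6 fibroblast markers was 8330 to 8462 CPM in untreated Scrambled CFs, against 61.8 to 66.5 CPM for 6 endothelial and 55.0 to 59.0 CPM for 6 macrophage markers. Of the cardiomyocyte markers Tnnt2 gave 93.4 CPM of a sum of 89.7 to 97.9 CPM, and Myh6 was at 0. In hearts the cardiomyocyte markers summed to 41115 to 44848 CPM. TGF-β libraries were submitted separately and labelled only as adult fibroblasts, so stimulus and table cannot be told apart, and the same holds for IL-17 against untreated cells. In bulk RNA, fewer cells of a type and less RNA per cell cannot be told apart either.

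Some of these genes are neighbours in the genome, which matters for reading their values. On GRCm38, Col4a1 (chr8:11198423-11312826, minus strand) and Col4a2 (chr8:11312805-11449287, plus strand) lie head to head, and their annotated first exons overlap by 22 bases. The shared segment, chr8:11312805-11312826 on the plus strand, is shown because both collagen IV genes start from it.
Col4a1/Col4a2 shared segment: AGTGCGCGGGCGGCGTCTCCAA
Col6a2 (chr10:76595762-76623630) and Col6a1 (chr10:76708792-76726168), both on the minus strand, are 85161 bases apart, and Col18a1 (chr10:77052178-77166548, minus strand) lies 326009 bases beyond Col6a1. Col6a3 is on another chromosome (chr1:90765923-90843971, minus strand), so the collagen VI chains that have to meet in 1 trimer come from separate loci. RefSeq sequences upstream of the outermost annotated start of these 3 genes (GRCm38.p6, 5′ to 3′ on the minus strand) are given because Col6a3 departed from its partner chains in the CFs. For Col6a1 that start is the GENCODE one, since its RefSeq start (76726044) lies further inside the gene, and for Col6a2 it is the outer of 2 RefSeq starts (76623630 and 76623404).
Col6a1, chr10:76726169-76726294: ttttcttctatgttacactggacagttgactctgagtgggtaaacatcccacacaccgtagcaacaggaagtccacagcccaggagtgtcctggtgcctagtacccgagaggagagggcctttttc
Col6a2, chr10:76623631-76623880: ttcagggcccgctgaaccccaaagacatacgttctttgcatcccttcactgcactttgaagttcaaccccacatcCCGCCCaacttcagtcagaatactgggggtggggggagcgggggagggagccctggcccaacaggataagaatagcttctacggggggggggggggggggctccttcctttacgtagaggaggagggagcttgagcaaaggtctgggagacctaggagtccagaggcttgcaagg
Col6a3, chr1:90843972-90844221: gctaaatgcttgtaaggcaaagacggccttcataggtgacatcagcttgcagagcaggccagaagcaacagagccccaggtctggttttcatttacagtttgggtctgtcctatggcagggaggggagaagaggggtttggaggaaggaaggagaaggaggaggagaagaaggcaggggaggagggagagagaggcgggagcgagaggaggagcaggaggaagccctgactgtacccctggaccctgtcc
Capitals mark a match, on either strand, to the TATA box searched as TATAAA, to the box searched as CCAAT, or to the GC box searched as GGGCGG. Of the printed stretches only that of Col6a2 held a match, a GC box on the opposite strand. The window before the inner RefSeq start of Col6a2, not printed, held 3 GC boxes at a GC content of 64.4%. Of 32851 RefSeq windows of 250 bases, 12.4% hold the TATA box, 33.8% the CCAAT box and 32.7% the GC box. The printed Col6a1 stretch has only 126 bases, so these shares do not apply to it. The RefSeq window of 250 bases of Col6a1 held 0 matches to each box. The printed stretches had a GC content of 51.6% (Col6a1), 59.2% (Col6a2) and 57.2% (Col6a3). A match to letters describes the window and locates no binding site.

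In untreated Scrambled CFs the members ranged widely in level. Per kilobase of exon, Col4a1 stood at 609 CPM per kb and Col4a2 at 459.6 CPM per kb, ranks 42 and 57 of 55141 genes. Col8a1 followed at 168, Col6a1 at 73.0 and Col12a1 at 35.6 CPM per kb. Collagen IV was thus among the most abundant transcripts of these cells. The lowest were Col6a2 at 17.8, Col14a1 at 14.8, Col6a3 at 7.31, Col15a1 at 4.21 and Col18a1 at 3.55 CPM per kb. The length used joins all annotated exons, and for Col6a2 it was 8326 bases where the longest coding transcript has 4653, which lowers its value. Together the 10 genes took 1.04% to 1.08% of all estimated counts, and Col4a1 with Col4a2 made up 74.4% to 74.9% of that sum.

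**Figure D1:**
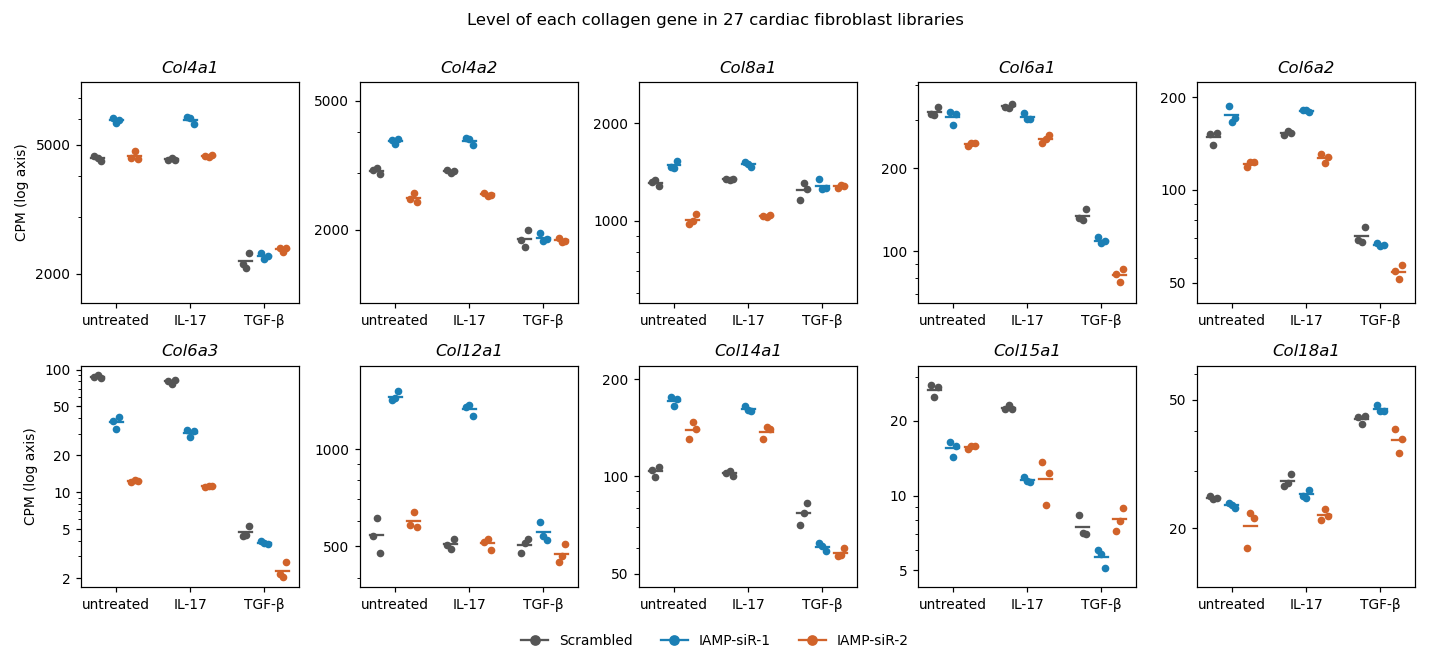
Level of the 10 collagen genes in the 27 CF libraries, in CPM on a log axis, in 1 panel per gene. Points are libraries and bars the means of 3 libraries per group. Col6a3 spans the widest range, from means of 87.5 CPM in untreated Scrambled CFs to 2.30 CPM with TGF-β and IAMP-siR-2, and Col8a1 the narrowest.

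The first comparison asked how each IAMP siRNA moved the members in untreated CFs. With IAMP-siR-1, 6 of the 10 members rose and 2 fell (edgeR's quasi-likelihood test, Benjamini-Hochberg adjusted p of at most 0.05), where 19.5% of the 19669 genes tested rose and 20.4% fell. With IAMP-siR-2, 1 rose and 7 fell, where 24.4% of genes rose and 25% fell. The 2 siRNAs share their Scrambled libraries, so the siRNAs were also compared directly. Against IAMP-siR-1, IAMP-siR-2 cells had 9 members lower and 0 higher by edgeR and also 0 higher by DESeq2, where 22.8% of genes were lower and 22.7% higher. The 9 were also those with an unadjusted p under 0.05, which 9873 of the 19669 genes tested had. The median log2 fold change of the members was 0.20 with IAMP-siR-1 and −0.31 with IAMP-siR-2, beside −0.016 and −0.020 over all genes tested.

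Collagen IV responded to the 2 siRNAs in different ways. Col4a1 measured 4632, 4551 and 4448 CPM in the Scrambled libraries, 6056, 5856 and 5967 CPM with IAMP-siR-1, and 4537, 4776 and 4509 CPM with IAMP-siR-2. All 3 IAMP-siR-1 libraries lay above both other groups, which overlapped. The gene rose with IAMP-siR-1 (log2 fold change 0.39, SE 0.028, edgeR adjusted p = 7.99e-09), while with IAMP-siR-2 its log2 fold change was 0.00052 (edgeR adjusted p = 0.992). Col4a2 measured 3054, 3109.7 and 2963 CPM with Scrambled, 3791, 3675 and 3803 CPM with IAMP-siR-1, and 2495, 2597 and 2435 CPM with IAMP-siR-2. The 3 groups of Col4a2 did not overlap, and it rose by 0.30 on the log2 scale with IAMP-siR-1 (SE 0.029, edgeR adjusted p = 2.78e-07) and fell by 0.30 with IAMP-siR-2 (edgeR adjusted p = 1.48e-07). Col8a1, the collagen VIII chain, followed Col4a2 in direction. It measured 1321, 1337 and 1279 CPM with Scrambled, 1466, 1456 and 1534 CPM with IAMP-siR-1 and 975, 1000.2 and 1048 CPM with IAMP-siR-2, with log2 fold changes of 0.17 (edgeR adjusted p = 0.000401) and −0.40 (edgeR adjusted p = 1.93e-08).

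Among the collagen VI chains Col6a3 stood apart. Its level was 86.7, 89.8 and 86.0 CPM in Scrambled libraries, 37.9, 32.6 and 41.1 CPM with IAMP-siR-1, and 12.2, 12.5 and 12.4 CPM with IAMP-siR-2. The groups were far from overlapping: Col6a3 fell 2.36-fold with IAMP-siR-1 (log2 fold change −1.24, SE 0.063, edgeR adjusted p = 1.16e-10) and 7.16-fold with IAMP-siR-2 (−2.84, SE 0.067, edgeR adjusted p = 5.66e-15). It was lower with IAMP-siR-2 than with IAMP-siR-1 by a log2 difference of −1.60. Col6a1 measured 316, 311 and 332 CPM with Scrambled, 321, 288 and 315 CPM with IAMP-siR-1 and 241, 248 and 246 CPM with IAMP-siR-2. Only the IAMP-siR-2 libraries lay apart, and Col6a1 fell there by 0.40 on the log2 scale (SE 0.038, edgeR adjusted p = 1.24e-07), while its value with IAMP-siR-1 was −0.061 (edgeR adjusted p = 0.237). Col6a2 measured 152, 140.5 and 153 CPM with Scrambled, 187, 166 and 172 CPM with IAMP-siR-1 and 118, 123 and 123 CPM with IAMP-siR-2. It rose by 0.23 with IAMP-siR-1 (SE 0.043, edgeR adjusted p = 0.000365) and fell by 0.31 with IAMP-siR-2 (edgeR adjusted p = 1.33e-05), so the 3 chains of collagen VI took 3 different courses under IAMP-siR-1.

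The collagens on fibril surfaces were higher with IAMP-siR-1. Col12a1 measured 539, 611 and 477 CPM with Scrambled and 1416, 1437 and 1513 CPM with IAMP-siR-1, a 2.67-fold rise (log2 fold change 1.42, SE 0.085, edgeR adjusted p = 3.3e-06). With IAMP-siR-2 it measured 581, 638 and 573 CPM, overlapping the Scrambled libraries (0.12, edgeR adjusted p = 0.297), and the direct difference between the siRNAs was −1.30. Without the Scrambled library of replicate 2 the IAMP-siR-2 value was 0.21 and passed the test (edgeR adjusted p = 0.00483). Col14a1 was higher with both siRNAs, at 104, 99.9 and 107 CPM with Scrambled, 176, 165 and 173 CPM with IAMP-siR-1 and 131, 147 and 141 CPM with IAMP-siR-2. Its 3 groups did not overlap, and it was the only member that rose with both, by 0.72 (edgeR adjusted p = 5.17e-10) and 0.41 (edgeR adjusted p = 2.51e-07) on the log2 scale.

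The collagens of the basement membrane zone that carry glycosaminoglycan chains were the least abundant members per kilobase in untreated Scrambled CFs. With IAMP-siR-2 Col6a3 was lower, at 1.03 CPM per kb beside 2.47 for Col15a1 and 2.90 for Col18a1. Col15a1 measured 27.9, 24.9 and 27.5 CPM with Scrambled, 16.5, 14.3 and 15.9 CPM with IAMP-siR-1 and 15.5, 15.8 and 15.8 CPM with IAMP-siR-2. It fell by 0.79 on the log2 scale with either siRNA (SE 0.065 for both, edgeR adjusted p = 4.79e-08 and 2.25e-08), and the siRNA groups overlapped. Col18a1 measured 25.1, 24.7 and 24.9 CPM with Scrambled and 23.9, 23.6 and 23.2 CPM with IAMP-siR-1, a log2 fold change of −0.086 (edgeR adjusted p = 0.402). With IAMP-siR-2 it measured 17.4, 22.3 and 21.5 CPM and fell by 0.31 (SE 0.073, edgeR adjusted p = 0.00183). Its difference between the siRNAs of −0.22 (edgeR adjusted p = 0.0191) was no longer past the test in 3 of the fits that leave out 1 library: −0.21 (adjusted p = 0.0599) without IAMP-siR-1 replicate 1, −0.22 (adjusted p = 0.0509) without IAMP-siR-1 replicate 2 and −0.12 (adjusted p = 0.101) without IAMP-siR-2 replicate 1.

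Past a 2-fold change in untreated CFs were Col12a1 upwards and Col6a3 downwards with IAMP-siR-1, and Col6a3 downwards with IAMP-siR-2. Over all genes 2.15% were past it upwards and 2.61% downwards with IAMP-siR-1, and 3.42% and 7.23% with IAMP-siR-2. Marker sums of cell types differed between the groups too, with mixed directions inside the lists. The fibroblast sum was 11089 to 11394 CPM with IAMP-siR-1 (3 of 6 genes rose, 1 fell) and 7838 to 8064 CPM with IAMP-siR-2 (2 rose, 3 fell). The 6 mural markers summed to 102 to 116 CPM with Scrambled, 66.3 to 72.6 CPM with IAMP-siR-1 (1 rose, 2 fell) and 53.3 to 66.4 CPM with IAMP-siR-2 (0 rose, 2 fell). Mesothelial markers summed to 141 to 157 CPM with Scrambled, 133 to 139 CPM with IAMP-siR-1 (1 of 6 fell) and 88.3 to 94.0 CPM with IAMP-siR-2 (4 fell, 1 rose). The cardiomyocyte sum, nearly all of it Tnnt2, was 41.9 to 46.9 and 27.9 to 32.8 CPM with the 2 siRNAs. The part of these shifts in the members' changes was not tested.

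**Figure D2:**
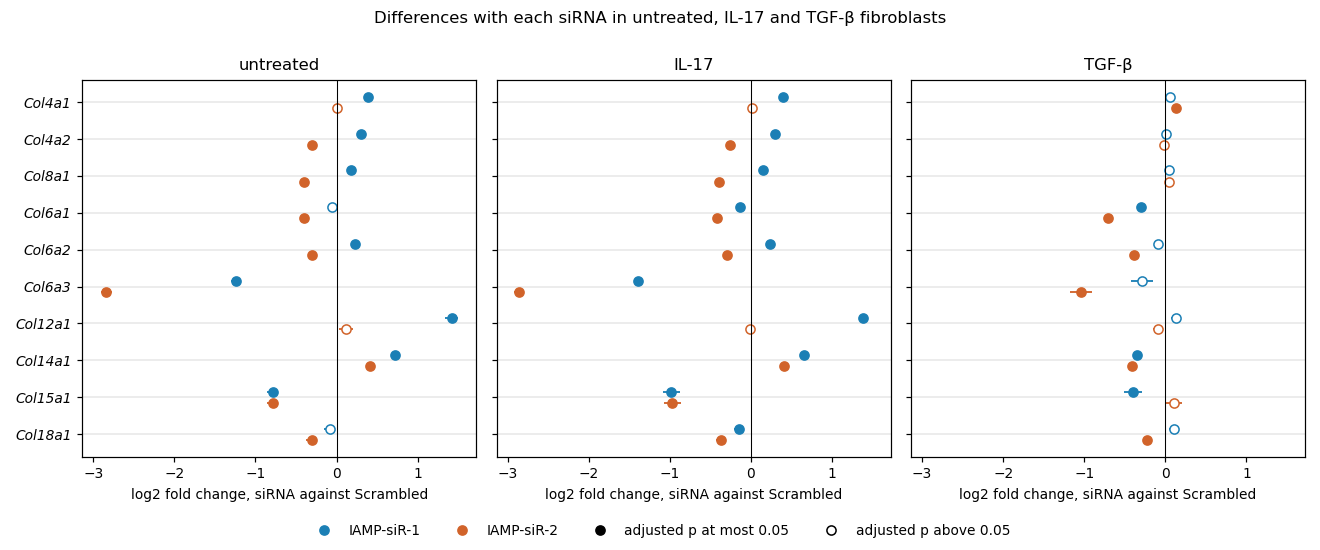
Log2 fold change of each collagen gene with IAMP-siR-1 and IAMP-siR-2 against Scrambled in untreated, IL-17 and TGF-β CFs, in 1 panel each, with bars of 1 SE. Filled points have an adjusted p of at most 0.05. Col6a3 reaches −2.84 in untreated and −2.86 in IL-17 cells with IAMP-siR-2 but −1.04 with TGF-β, and the Col12a1 value of 1.42 with IAMP-siR-1 is 0.13 with TGF-β.

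The same siRNA comparisons were made under IL-17, a cytokine of inflammatory signalling. With IAMP-siR-1, 6 members rose and 4 fell, where 20.3% of 19906 genes rose and 21.9% fell, and with IAMP-siR-2, 1 rose and 7 fell, where 25% rose and 25.6% fell. Against IAMP-siR-1, IAMP-siR-2 cells had 9 members lower and 0 higher, by DESeq2 also 0 higher, where 23.1% of genes were lower and 23.1% higher. The same 9 had an unadjusted p under 0.05, which 10087 of the 19906 genes tested had. Col15a1 was the exception, with a difference of 0.011 (edgeR adjusted p = 0.956).

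Col6a3 measured 81.3, 76.9 and 82.0 CPM with Scrambled and IL-17, 32.4, 28.0 and 31.5 CPM with IAMP-siR-1, and 11.1, 11.2 and 11.2 CPM with IAMP-siR-2, with log2 fold changes of −1.40 and −2.86. Col12a1 measured 505, 492 and 527 CPM with Scrambled and 1351, 1374 and 1262 CPM with IAMP-siR-1, a log2 fold change of 1.38, and with IAMP-siR-2 its 516, 528 and 487 CPM overlapped Scrambled (−0.014, edgeR adjusted p = 0.803). The steps of both genes were thus present under IL-17 as well. Col4a1 had log2 fold changes of 0.40 and 0.013, Col4a2 of 0.30 and −0.26, and Col8a1 of 0.15 and −0.40 with IAMP-siR-1 and IAMP-siR-2. Col14a1 rose by 0.65 and 0.41, and Col15a1 fell by 0.98 and 0.97. Col6a1 fell with both siRNAs, by 0.14 (edgeR adjusted p = 0.00138) and 0.41 on the log2 scale, and Col6a2 again went up with IAMP-siR-1 (0.23) and down with IAMP-siR-2 (−0.29). Col18a1 fell by 0.15 with IAMP-siR-1 (edgeR adjusted p = 0.0351) and by 0.37 with IAMP-siR-2. The IAMP-siR-1 call on Col18a1 was lost when 1 library was left out in 4 cases, with adjusted p of 0.0529 and 0.152 without Scrambled replicate 2 or 3, and 0.0842 and 0.112 without IAMP-siR-1 replicate 1 or 2. Mesothelial markers summed to 109.8 to 114 CPM with Scrambled. They summed to 108 to 112 CPM with IAMP-siR-1 (1 of 6 rose, 1 fell) and 69.1 to 73.2 CPM with IAMP-siR-2 (1 rose, 4 fell). In the same order, mural markers summed to 153 to 158, 100 to 105 (0 rose, 3 fell) and 76.4 to 83.7 CPM (1 rose, 2 fell). Fibroblast markers summed to 8195 to 8311, 10333 to 10767 (2 rose, 2 fell) and 7936 to 8189 CPM (2 rose, 4 fell). Macrophage markers summed to 54.4 to 54.8, 62.9 to 68.2 (2 rose, 0 fell) and 74.4 to 83.2 CPM (2 rose, 0 fell). The cardiomyocyte sum was 70.2 to 76.9, 32.1 to 35.6 and 23.2 to 26.0 CPM. The part of these shifts in the members' values was not tested.

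Whether the siRNA effects differed between IL-17 and untreated CFs was tested with an interaction term over the 18 libraries of both tables. By edgeR 0 of the 10 members passed for either siRNA, where 0.895% and 0.688% of the 21219 genes tested rose and 1.24% and 1.2% fell for IAMP-siR-1 and IAMP-siR-2. No member had an unadjusted p under 0.05, where 2517 and 2055 of all genes tested had, and none passed with DESeq2. The differences of log2 fold changes ran from −0.19 (Col15a1, SE 0.13) to 0.012 with IAMP-siR-1, and from −0.17 (Col15a1, SE 0.13) to 0.050 with IAMP-siR-2.

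For IL-17 itself, compared in Scrambled CFs, by edgeR 0 of 10 members passed the test, where 6.61% of 21219 genes rose and 6.96% fell. By DESeq2 0 members passed after adjustment. Beside 5014 of the 21219 genes tested, 3 members had an unadjusted p under 0.05. They were Col15a1, from 26.8 ± 1.62 to 22.6 ± 0.516 CPM (log2 fold change −0.24, edgeR adjusted p = 0.0858), Col18a1, from 24.9 ± 0.185 to 28.0 CPM (0.17, edgeR adjusted p = 0.0921), and Col6a3, from 87.5 ± 2.03 to 80.1 ± 2.75 CPM (−0.13, edgeR adjusted p = 0.17; n = 3 in each group). Col15a1 passed (−0.24 and −0.25, adjusted p of 0.039 and 0.00776) when IL-17 IAMP-siR-2 replicate 1 or 2 was left out of the fit, Col18a1 (0.17, adjusted p = 0.0222) without untreated IAMP-siR-2 replicate 1, and Col12a1 (−0.18, adjusted p = 0.0462) without untreated Scrambled replicate 3. Fitted with the compared groups alone, Col15a1 (edgeR adjusted p = 0.0213) and Col18a1 (0.0404) also passed. Both passed with estimated counts divided by 6 (0.0247 and 0.0458), and Col18a1 with a mean of at least 1 CPM (0.0467). In the same comparison 4 of 6 mesothelial markers fell and 2 of 6 mural markers rose, and their part was not tested.

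TGF-β, the cytokine that drives fibroblasts to myofibroblasts, was compared with untreated cells in Scrambled CFs. Of the 10 members 1 rose and 7 fell, where 29.3% of 21508 genes rose and 28% fell, and 5 of those that fell were past a 2-fold change, where 9.07% of genes fell and 12.5% rose past it. The median log2 fold change of the members was −0.88, against 0.029 over all genes tested. The members' share of all counts was 0.618% to 0.664% in the TGF-β Scrambled libraries, below the untreated range. Markers of cell types differed between these tables as well. Fibroblast markers summed to 13993 to 14589 CPM in the TGF-β Scrambled libraries, with mixed directions inside the list (3 of 6 genes rose, 2 fell). Mural markers summed to 64.3 to 65.7 CPM (3 of 6 rose, 2 fell). Macrophage markers summed to 156 to 164 CPM, with 5 of 6 genes risen and 0 fallen. Endothelial markers reached 103 to 105 CPM, with 5 of 6 risen and 1 fallen. Mesothelial markers reached 41.3 to 47.4 CPM, from an untreated range of 141 to 157 CPM, with 5 of 6 fallen and 1 risen. The cardiomyocyte sum was 5.42 to 6.00 CPM. The part of these cell-type markers in the members' differences was not tested.

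The largest of these differences was in Col6a3, at 4.38, 4.48 and 5.34 CPM with TGF-β against 86.7, 89.8 and 86.0 CPM without. It fell 18.5-fold (log2 fold change −4.21, SE 0.096, edgeR adjusted p = 1.15e-20). Its partner chains fell less, Col6a1 from 319.7 ± 11.3 to 135 ± 6.43 CPM (−1.25) and Col6a2 from 149 ± 7.0 to 70.8 ± 4.47 CPM (−1.07). Collagen VI transcripts of all 3 chains were therefore lower in the TGF-β libraries, with no overlap in any of them. Col4a1 fell from 4544 ± 92.1 to 2181 ± 118 CPM (−1.06) and Col4a2 from 3042 ± 74.2 to 1874 ± 112 CPM (−0.70). Per kilobase their ranks were 133 and 134, behind 42 and 57 in untreated CFs. Col15a1 fell from 26.8 ± 1.62 to 7.47 ± 0.733 CPM (−1.84), and Col14a1 from 104 ± 3.65 to 76.9 ± 6.03 CPM (−0.44; n = 3 per group throughout). Col18a1 was the member that rose, from 25.1, 24.7 and 24.9 CPM to 44.2, 42.2 and 44.6 CPM (0.81, SE 0.070, edgeR adjusted p = 3.26e-10). Col15a1 and Col18a1, related in structure, thus differed in direction. Col8a1 had a log2 fold change of −0.082 (edgeR adjusted p = 0.0814) and Col12a1 of −0.11 (edgeR adjusted p = 0.288). Both were past the test when untreated Scrambled replicate 3 was left out (−0.12 and −0.21, adjusted p of 0.0281 and 0.0241), and Col8a1 also without TGF-β Scrambled replicate 2 (−0.12, adjusted p = 0.013) and with DESeq2 (−0.10, adjusted p = 0.0295).

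Within the TGF-β table the siRNAs moved fewer members. With IAMP-siR-1, 0 rose and 3 fell by edgeR, and by DESeq2 0 rose, where 11.7% of 19891 genes rose and 11.4% fell. At an unadjusted p under 0.05 there were 4 members, beside 6466 of the 19891 genes tested. With IAMP-siR-2, 1 rose and 5 fell, where 15.1% of genes rose and 14.8% fell. Against IAMP-siR-1, IAMP-siR-2 cells had 1 member higher and 5 lower, where 12% of genes were higher and 12% lower. Mesothelial markers summed to 41.3 to 47.4 CPM with Scrambled, 29.5 to 33.9 CPM with IAMP-siR-1 (3 of 6 fell) and 23.3 to 30.2 CPM with IAMP-siR-2 (4 fell). In the same order, mural markers summed to 64.3 to 65.7, 52.7 to 54.9 (0 rose, 2 fell) and 55.4 to 57.0 CPM (1 rose, 2 fell). Macrophage markers summed to 156 to 164, 125 to 140 (0 rose, 3 fell) and 139.6 to 147 CPM (1 rose, 2 fell). Fibroblast markers summed to 13993 to 14589, 14481 to 14816 (2 rose, 0 fell) and 15656 to 16429 CPM (3 rose, 1 fell). The part of these shifts was not tested.

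Collagen VI again held the clearest differences. Col6a1 measured 132, 129.8 and 142 CPM with Scrambled and TGF-β, 112, 107 and 109 CPM with IAMP-siR-1 and 82.8, 77.7 and 86.2 CPM with IAMP-siR-2. The groups did not overlap, and Col6a1 fell by 0.30 (SE 0.044, edgeR adjusted p = 6.45e-05) and 0.71 (edgeR adjusted p = 1.94e-09) on the log2 scale. Col6a2 fell by 0.38 with IAMP-siR-2 (edgeR adjusted p = 1.3e-05), and its value with IAMP-siR-1 was −0.092. Col6a3 measured 4.01, 3.87 and 3.75 CPM with IAMP-siR-1 and 2.16, 2.02 and 2.72 CPM with IAMP-siR-2. It fell with IAMP-siR-2 (−1.04, SE 0.14, edgeR adjusted p = 1.89e-05), and with IAMP-siR-1 its log2 fold change was −0.29 (SE 0.14, edgeR adjusted p = 0.157). The lowest of these libraries held 210 estimated counts of Col6a3, the lowest count of any member in the CFs.

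Col14a1 changed direction under TGF-β, at 70.8, 77.1 and 82.9 CPM with Scrambled, 62.1, 61.0 and 58.7 CPM with IAMP-siR-1 and 56.9, 57.2 and 60.1 CPM with IAMP-siR-2. It fell with both siRNAs (−0.34 and −0.41, edgeR adjusted p = 9.83e-05 and 1.12e-05), where it had risen with both in untreated CFs. Col12a1, at 476, 511 and 527 CPM with Scrambled, 596, 539 and 523 CPM with IAMP-siR-1 and 448, 465 and 508 CPM with IAMP-siR-2, had overlapping groups and log2 fold changes of 0.13 (edgeR adjusted p = 0.133) and −0.089. Its direct difference between the siRNAs of −0.22 (adjusted p = 0.0135) was lost without IAMP-siR-2 replicate 1 (−0.18, adjusted p = 0.052) or 2 (−0.21, adjusted p = 0.0567).

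Col15a1 fell with IAMP-siR-1, from 8.32, 7.09 and 7.01 CPM to 6.05, 5.83 and 5.12 CPM (−0.40, SE 0.11, edgeR adjusted p = 0.012), and measured 7.22, 7.91 and 8.92 CPM with IAMP-siR-2. The call was lost without Scrambled replicate 1 (−0.31, adjusted p = 0.0799) or IAMP-siR-1 replicate 3 (−0.33, adjusted p = 0.067). Col18a1 fell with IAMP-siR-2 (−0.22, edgeR adjusted p = 0.00725), at 40.4, 34.1 and 37.7 CPM against 44.2, 42.2 and 44.6 CPM. Collagen IV differences were small here. Col4a1 measured 2145, 2085 and 2313 CPM with Scrambled, 2319, 2219.5 and 2263 CPM with IAMP-siR-1 and 2400.0, 2339 and 2406 CPM with IAMP-siR-2. The Col4a1 rise with IAMP-siR-2 was small (0.13, SE 0.038, edgeR adjusted p = 0.0158), and adjusted p lay at 0.0524 to 0.0753 without Scrambled replicate 1 or 2 or IAMP-siR-2 replicate 1 or 3. Col4a1 with IAMP-siR-1 had a log2 fold change of 0.057 that became 0.10 (adjusted p = 0.0433) without Scrambled replicate 3. Col4a2 and Col8a1 did not pass the test with either siRNA, with log2 fold changes of 0.012 and −0.012 for Col4a2 and of 0.050 and 0.046 for Col8a1.

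**Figure D3:**
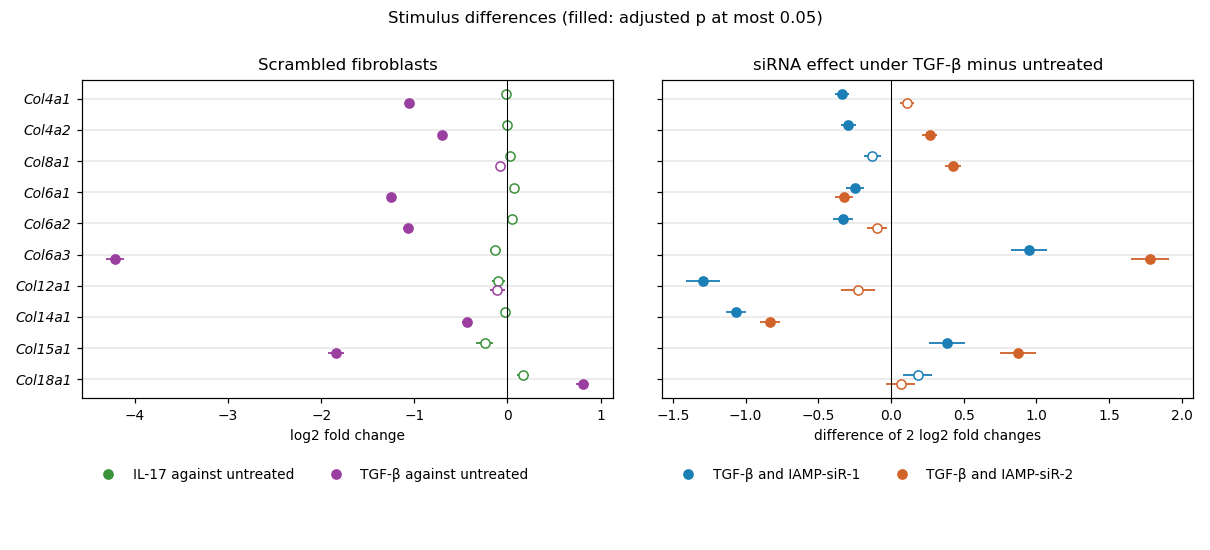
Left, log2 fold change of each collagen gene in Scrambled CFs with IL-17 or TGF-β against untreated cells. Right, the siRNA effect under TGF-β minus that in untreated CFs, on the log2 scale, with bars of 1 SE and filled points for an adjusted p of at most 0.05. Col6a3 sits lowest on the left, at −4.21 with TGF-β, and highest on the right, at 1.78 for IAMP-siR-2, while Col12a1 and Col14a1 are lowest on the right for IAMP-siR-1.

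The difference between the siRNA effects in TGF-β and untreated CFs was tested directly by interaction terms over the 18 libraries of both tables. For IAMP-siR-1, 2 members had a higher and 6 a lower effect under TGF-β, where 9.19% of 21508 genes were higher and 10.4% lower. For IAMP-siR-2, 4 were higher and 2 lower, where 14.6% and 15.6% of genes were. The fit shares the Scrambled libraries with the stimulus comparison above, so both sets of values are given side by side and not correlated.

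For Col6a3 the effect of each siRNA was less negative under TGF-β, by 0.95 (SE 0.13, edgeR adjusted p = 5.28e-06) for IAMP-siR-1 and 1.78 (SE 0.13, edgeR adjusted p = 2.32e-10) for IAMP-siR-2 on the log2 scale. Its level under TGF-β was already below that of either siRNA in untreated CFs. For Col12a1 the IAMP-siR-1 effect was lower by 1.29 (SE 0.12, edgeR adjusted p = 1.38e-06). Col14a1 had differences of −1.07 (edgeR adjusted p = 8.09e-11) and −0.83 (edgeR adjusted p = 1.58e-09) for IAMP-siR-1 and IAMP-siR-2. Both fibril-surface collagens therefore had a lower IAMP-siR-1 effect with TGF-β than without. Collagen IV differed in sign between the siRNAs, with −0.33 (Col4a1) and −0.29 (Col4a2) for IAMP-siR-1 and 0.11 (Col4a1, edgeR adjusted p = 0.103) and 0.27 (Col4a2) for IAMP-siR-2. Col8a1 had 0.43 for IAMP-siR-2 (edgeR adjusted p = 1.85e-06). Col15a1 had 0.38 and 0.87, of which the IAMP-siR-1 value (edgeR adjusted p = 0.0289) was lost when any of 7 libraries was left out, with values of 0.33 to 0.37 and adjusted p of 0.0515 to 0.0869. Those libraries were untreated Scrambled replicates 1 and 3, untreated IAMP-siR-1 replicate 2, TGF-β Scrambled replicates 2 and 3, and TGF-β IAMP-siR-1 replicates 1 and 2. The remaining calls were on Col6a1 (−0.25 and −0.32) and, for IAMP-siR-1, Col6a2 (−0.33).

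A few values that did not pass came past the test without 1 library. They were those of Col4a1 with IAMP-siR-2 (0.13 to 0.16 without untreated Scrambled replicate 3, untreated IAMP-siR-2 replicate 2, TGF-β Scrambled replicate 3 or TGF-β IAMP-siR-2 replicate 2), Col12a1 with IAMP-siR-2 (−0.32 without untreated Scrambled replicate 2) and Col8a1 with IAMP-siR-1 (−0.17 without TGF-β Scrambled replicate 1).

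Because the chains of a collagen are assembled in fixed proportions, their transcripts were also set against each other within each library, as ratios of CPM per kilobase. The joined exons of Col6a2 and Col6a1 have 8326 and 4380 bases, their longest coding transcripts 4653 and 4100. The size of a ratio thus depends on the lengths chosen and is not a proportion of chains. Comparisons of a ratio between groups do not depend on them. The ratio of Col4a2 to Col4a1 was 0.755 in untreated Scrambled CFs, 0.711 with IAMP-siR-1 and 0.614 with IAMP-siR-2, and 0.969, 0.939 and 0.879 with TGF-β. With 3 libraries per group the smallest p of the two-sided exact permutation test over 20 arrangements is 0.1, and each of these siRNA groups reached it against its own Scrambled group, without overlap. Col4a2 transcripts were thus fewer relative to Col4a1 with either siRNA, and nearer to it under TGF-β.

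The ratio of Col6a3 to Col6a1 was 0.10 in untreated Scrambled CFs, 0.0442 with IAMP-siR-1 and 0.0185 with IAMP-siR-2. Under IL-17 the corresponding ratios were 0.0874, 0.0365 and 0.0160, and under TGF-β 0.0129, 0.0130 and 0.0102. In the TGF-β cells the IAMP-siR-1 ratio overlapped Scrambled (exact permutation p = 0.8, n = 3), and in all other siRNA groups the ratio was lower without overlap (exact permutation p = 0.1, n = 3). Col6a2 to Col6a1 moved the opposite way, from 0.244 in untreated Scrambled CFs to 0.299 and 0.261 with the siRNAs, and from 0.277 to 0.320 and 0.347 under TGF-β, without overlap of either siRNA group with its Scrambled group. With IL-17 the Col4a2 to Col4a1 (0.758) and Col6a2 to Col6a1 (0.241) ratios of Scrambled CFs overlapped those of untreated cells (exact permutation p = 0.9 and 0.6, n = 3), while Col6a3 to Col6a1 was lower without overlap (exact permutation p = 0.1, n = 3).

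**Figure D4:**
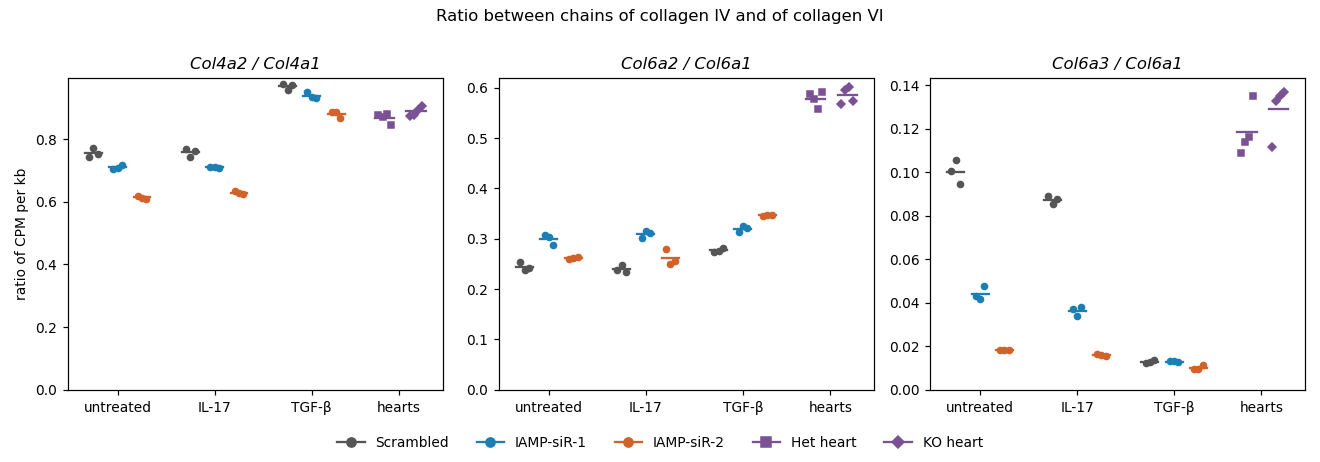
Ratios of CPM per kilobase between partner chains, Col4a2 to Col4a1, Col6a2 to Col6a1 and Col6a3 to Col6a1, in each CF and heart library. Points are libraries and bars group means. The Col6a3 to Col6a1 ratio drops from 0.10 in untreated Scrambled CFs to 0.0185 with IAMP-siR-2 and to 0.0129 with TGF-β, while the hearts lie at 0.118 (IAMP-HET) and 0.129 (IAMP-KO).

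Over the 9 CF groups the highest group mean exceeded the lowest 38.0 times for Col6a3, 4.72 times for Col15a1 and 4.08 times for Col6a1, but only 1.49 times for Col8a1. In the order of Col6a3 levels, no group overlapped the next: untreated Scrambled stood first, then IL-17 Scrambled, the IAMP-siR-1 groups, the IAMP-siR-2 groups and the 3 TGF-β groups, with untreated above IL-17 in each pair. Col15a1 also had the untreated Scrambled group on top, followed by IL-17 Scrambled. Col4a1, Col4a2, Col6a2 and Col8a1 were highest in the 2 IAMP-siR-1 groups without TGF-β, whose libraries overlapped each other in each of these genes. Col12a1 and Col14a1 were also highest there, with the untreated group above the IL-17 group. Col18a1 had its 3 highest groups under TGF-β.

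The group means of partner chains ran together across the 9 CF groups, as a description without a test since the groups share libraries of a table. On log2(CPM + 1) Pearson's r was 0.951 for Col4a1 and Col4a2, 0.979 for Col6a1 and Col6a2, 0.913 for Col6a1 and Col6a3, and 0.885 for Col6a2 and Col6a3. Col6a3 and Col15a1 had 0.910, and Col4a1 and Col18a1 −0.902. Among 13330 genes whose mean reached 1 CPM the nearest pattern was that of Magt1 for Col4a1 (0.998), Zzz3 for Col4a2 (0.994), Khsrp for Col6a1 (0.997), Tubb5 for Col6a2 (0.991) and Smc4 for Col6a3 (0.999). For Col8a1 it was Fn1, the fibronectin gene (0.987), for Col12a1 Prdm4 (0.974), for Col14a1 Ice1 (0.988), for Col15a1 Cplx2 (0.990) and for Col18a1 Plscr2 (0.993). Each is the highest of 13330 values over only 9 groups.

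Related gene lists were described beside the members, to be read against the shares over all genes, in untreated CFs 19.5% risen and 20.4% fallen with IAMP-siR-1 and 24.4% and 25% with IAMP-siR-2. Of 21 other collagen chains tested, 3 rose and 2 fell with IAMP-siR-1, and 3 rose and 6 fell with IAMP-siR-2, with median log2 fold changes of 0.041 and −0.57. Col28a1, a beaded-filament collagen, rose by 2.50 and 2.68 with the 2 siRNAs, and Col7a1, the anchoring-fibril chain, fell by 0.62 and 1.15. The alternative collagen IV chain Col4a3 fell by 1.19 with IAMP-siR-2, while Col4a6 and Col4a5 rose by 0.56 and 0.42 with IAMP-siR-1. Col20a1 rose by 0.80 with IAMP-siR-2.

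Of 26 basement membrane partners tested (laminins, nidogens, perlecan and the like), 12 rose and 8 fell with IAMP-siR-1, and 6 rose and 13 fell with IAMP-siR-2, with medians of 0.15 and −0.47. Peroxidasin, Pxdn, which cross-links collagen IV, fell by 0.60 and 1.87. Hmcn1, hemicentin, fell by 1.14 and 1.19, while Smoc1 and Fbln2 rose with IAMP-siR-1 (0.79 and 0.59), and Smoc2 and the laminin chain Lama5 fell with IAMP-siR-2 (−1.26 and −1.18).

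Among 14 collagen receptors, 6 rose and 5 fell with IAMP-siR-1, and 3 rose and 8 fell with IAMP-siR-2. The collagen-binding integrin chain Itga1 fell by 0.64 and 0.76, and its partner Itgb1 rose by 0.60 with IAMP-siR-1 and fell by 0.81 with IAMP-siR-2. The discoidin receptor Ddr1 (1.03) and Cd44 (0.79) rose with IAMP-siR-1, and with IAMP-siR-2 Itga2 rose by 1.61 and Itga10 fell by 1.01. Of 21 genes that fold, modify or export collagen, 10 rose and 6 fell with IAMP-siR-1, and 5 rose and 10 fell with IAMP-siR-2. The lysyl hydroxylase Plod2 fell by 1.09 with IAMP-siR-1, the prolyl hydroxylase P3h2 fell by 0.61 and 1.19, P4hb rose by 0.55 and 0.34, and P4ha3 fell by 1.08 with IAMP-siR-2. Colgalt1, a collagen galactosyltransferase, rose by 0.35 with IAMP-siR-1, and P3h3 fell by 0.51 with IAMP-siR-2.

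Under IL-17, where 20.3% of all genes rose and 21.9% fell with IAMP-siR-1 and 25% and 25.6% with IAMP-siR-2, the counts of risen and fallen genes for IAMP-siR-1 were 4 and 2 of 22 other chains, 10 and 9 of 27 partners, 5 and 6 of 14 receptors and 10 and 5 of 21 processing genes. For IAMP-siR-2 they were 3 and 9, 6 and 13, 4 and 9, and 5 and 9. Pxdn fell by 0.76 and 1.87 and Col28a1 rose by 2.31 and 2.62. The interaction with IL-17 passed for IAMP-siR-1 in Frem1 (−0.70) of 27 partners, and in P4ha2 (0.41) and Plod2 (−0.21) of 21 processing genes. For IAMP-siR-2 it passed in Lama4 (0.20) of 27 partners. Of 23 other chains and 14 receptors 0 passed with either siRNA. Over all 21219 genes 0.895% rose and 1.24% fell for IAMP-siR-1, and 0.688% and 1.2% for IAMP-siR-2. In Scrambled CFs with IL-17 the receptors Itga2 (1.25), Cd44 (0.52), Cspg4 (0.49) and Ddr1 (0.28) were higher than in untreated cells. Col4a4 (−0.31) and Col4a3 (−0.30) were lower there, and stimulus and table cannot be told apart. In that comparison, where 6.61% of all genes rose and 6.96% fell, 4 receptors rose and 3 fell of 14, 1 and 6 of 27 partners did, 1 and 2 of 23 other chains, and 1 and 5 of 21 processing genes.

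With TGF-β 29.3% of all genes rose and 28% fell in Scrambled CFs. Of 22 other chains 6 rose and 6 fell, near those shares, led by Col8a2 (4.36), the partner chain of Col8a1 in collagen VIII, and Col22a1 (3.52), with Col23a1 (1.07) risen and Col28a1 (−1.77) fallen. Of 27 partners 8 rose and 14 fell, among them Agrn (1.82) upwards and Npnt (−2.72), Frem1 (−2.58) and the nidogen Nid2 (−1.70) downwards. Of 14 receptors 3 rose and 8 fell, with the integrin Itga11 up by 2.98 and Ddr2 (−1.38), Itga1 (−1.26) and Cspg4 (−1.0) down. Of 21 processing genes 13 rose and 1 fell, including the procollagen proteinase Bmp1 (1.19), P3h1 (1.01), Colgalt1 (0.94) and Crtap (0.83).

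Within the TGF-β table, where 11.7% of all genes rose and 11.4% fell with IAMP-siR-1 and 15.1% and 14.8% with IAMP-siR-2, IAMP-siR-1 gave 0 risen and 8 fallen of 20 other chains, 4 and 6 of 27 partners, 6 and 4 of 14 receptors and 3 and 7 of 21 processing genes. IAMP-siR-2 gave 0 and 7, 3 and 10, 5 and 6, and 7 and 6. Pxdn fell by 0.56 and 0.86, Col7a1 by 1.2 and 0.75, and Col8a2 by 0.48 and 1.38. Plod2 fell by 1.01 with IAMP-siR-1, and Lama5 (−0.92), Itga1 (−0.96) and Col4a3 (−1.08) fell with IAMP-siR-2.

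The last comparison asked whether loss of IAMP altered the members in the heart itself. By edgeR 0 of 10 members and 0% of the 16675 genes tested passed, while 601 genes and 1 member had an unadjusted p under 0.05. DESeq2 called 3 genes higher and 2 lower of 29699, none of them a member. The log2 fold changes of the members (IAMP-KO against IAMP-HET) ran from −0.13 for Col6a1 to 0.50 for Col12a1, with a median of −0.074 beside −0.0011 over all genes.

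Col12a1 was the member with an unadjusted p under 0.05 (0.025, edgeR adjusted p = 1.0), at 1.05, 0.913, 1.44 and 1.28 CPM in IAMP-HET and 1.78, 1.22, 1.81 and 1.81 CPM in IAMP-KO hearts. The groups overlapped through the second KO heart, and the counts behind these levels were only 21 to 44 per heart. Col4a1 measured 509, 490.4, 518 and 571 CPM in IAMP-HET and 489, 551, 439 and 559 CPM in IAMP-KO hearts. Col4a2 measured 396, 378, 405 and 428 CPM against 379, 429, 348 and 449 CPM. Both collagen IV genes overlapped fully, with log2 fold changes of −0.036 (SE 0.079) and −0.0026 (SE 0.077).

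Col6a1 measured 63.4, 56.1, 69.7 and 75.3 CPM against 64.7, 59.5, 62.1 and 55.0 CPM. Col6a2 measured 70.6, 61.6, 74.0 and 84.6 CPM against 69.9, 67.2, 70.9 and 60.0 CPM. Col6a3 measured 18.9, 17.4, 22.1 and 27.8 CPM against 19.7, 21.6, 22.9 and 20.6 CPM. In each collagen VI chain the highest heart was the fourth IAMP-HET heart in column order, which also had the highest Col4a1, Col14a1, Col15a1 and Col18a1 levels of the 8 hearts. Its fibroblast (780 CPM), endothelial (603 CPM) and mural (556 CPM) marker sums were the highest as well, where the other hearts lay at 513 to 719, 520.2 to 578 and 479.5 to 548 CPM. Col15a1 measured 55.0 ± 11.6 CPM in IAMP-HET and 50.6 ± 3.34 CPM in IAMP-KO hearts, Col18a1 13.4 ± 4.71 and 12.4 ± 1.44 CPM, Col14a1 8.76 ± 2.24 and 8.09 ± 0.292 CPM, and Col8a1 9.03 ± 0.703 and 9.21 ± 0.707 CPM (SD, n = 4). The part of that heart's marker levels in these values was not tested.

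The chain ratios of the hearts also overlapped between genotypes. Col4a2 to Col4a1 was 0.869 and 0.888 (two-sided exact permutation p = 0.171, n = 4), Col6a2 to Col6a1 0.578 and 0.584 (exact permutation p = 0.571, n = 4) and Col6a3 to Col6a1 0.118 and 0.129 (exact permutation p = 0.314, n = 4) in IAMP-HET and IAMP-KO hearts. Per kilobase the order of the members in hearts was different from that in CFs, as a description of separately made tables. Col8a1 ranked 193 of 55141 genes in untreated Scrambled CFs and 11506 in IAMP-HET hearts, and Col12a1 1311 and 21069, while Col15a1 ranked 7516 in CFs and 3711 in hearts. None of the 13 other chains, 24 partners, 13 receptors or 20 processing genes tested in hearts passed the test.

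**Figure D5:**
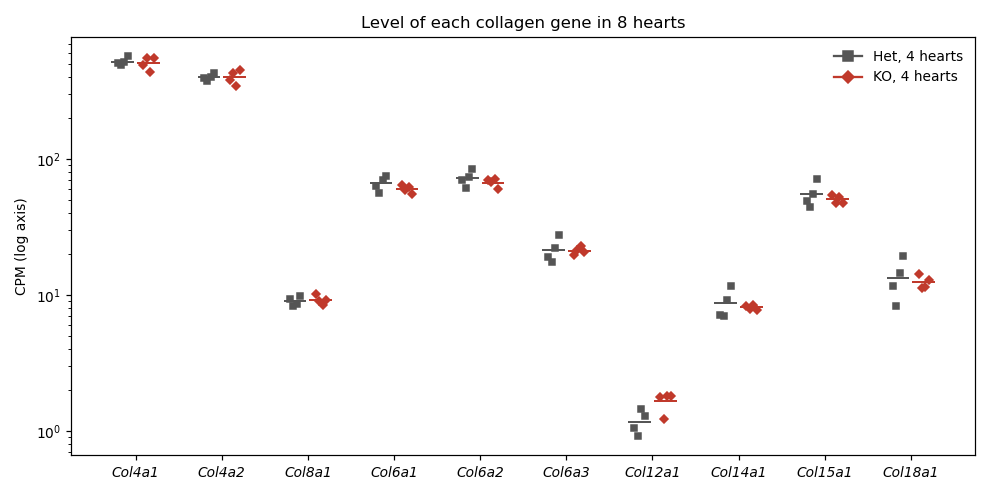
Level of the 10 collagen genes in whole hearts, in CPM on a log axis, for 4 IAMP-HET and 4 IAMP-KO mice. Points are hearts and bars group means. The groups overlap in all 10 genes, Col4a1 lying at 439 to 571 CPM and Col12a1 at 0.913 to 1.81 CPM.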

How the data were processed

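RNA-seq of 27 CF libraries (9 groups) and 8 hearts was analysed, from 4 tables. The authors trimmed reads with Cutadapt 3.7, checked them with FastQC 0.11.9, aligned them to GRCm38 with HISAT2 2.2.1 and estimated transcripts with StringTie 2.1.4. The deposited CF tables hold estimated counts, in which a read pair gives up to 6, and the deposited heart table holds counts. How strand was treated, which annotation release was used and how values became whole numbers is not given in the sources used here, so reads of antisense partners cannot be told apart. Which siRNA code is which in the untreated and IL-17 tables rests on the descriptions of the TGF-β samples.

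Each table was fitted with edgeR 4.0.16 (R 4.3.3, limma 3.58.1): TMM factors, its expression filter, robust quasi-likelihood tests and Benjamini-Hochberg adjustment over all genes tested. Estimated counts entered as deposited. Stimuli and interactions used the 18 libraries of 2 tables. The check by fold used a log2 fold change of 1, or 1.5-fold within the IL-17 and TGF-β tables. CPM levels used TMM factors over all CF libraries jointly, so they can differ slightly from the fits, and CPM per kb used GENCODE vM21 exon lengths, with 55141 of 55487 identifiers matched. RefSeq gave start-site sequences for 8 of the 10 genes. Counts at or under 3 read pairs (18 estimated counts, or 3 counts in hearts) were taken as the floor, and no member was there. The floor covers counting error only, while each SE comes from the fit and includes the spread between libraries. Fits were tested on simulated independent counts at the deposited depth. These lacked the up to 6 estimated counts per read pair of the CF tables, so they cannot check that feature. Alternatives were RLE factors, no filter, a mean of at least 1 CPM, estimated counts divided by 6, the compared groups alone, a replicate block, the other fold threshold, DESeq2 1.42.0 and leaving out each library.

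The members and gene lists were chosen with earlier results of these data known. All members were named in every comparison, and of each list up to 4 genes with the largest absolute log2 fold change at an adjusted p of at most 0.05.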

Additional observations from a re-analysis of the deposited data

Results flagged for a closer look

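In the IAMP-KO hearts the lowest Col12a1 value, 1.22 CPM, lay far from the other 3 hearts for a group of 4 by Dixon's criterion. Of 20 such groups tested, chance gives about 1 in 20.

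The siRNA effect under TGF-β differed from that in untreated CFs by an interaction term (edgeR quasi-likelihood test, adjusted p of at most 0.05) in 14 cases. Over the 21508 genes tested, 9.19% were higher and 10.4% lower for IAMP-siR-1, and 14.6% and 15.6% for IAMP-siR-2. For IAMP-siR-1 the differences on the log2 scale were −0.33 for Col4a1, −0.29 for Col4a2, −0.25 for Col6a1, −0.33 for Col6a2, 0.95 for Col6a3, −1.29 for Col12a1, −1.07 for Col14a1 and 0.38 for Col15a1. For IAMP-siR-2 they were 0.27 for Col4a2, −0.32 for Col6a1, 1.78 for Col6a3, 0.43 for Col8a1, −0.83 for Col14a1 and 0.87 for Col15a1. The TGF-β libraries form a table of their own, so the stimulus and the table cannot be told apart in these differences.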

How the results depend on the processing

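Of 89 member values past the test, 0 changed sign over 1608 alternative fits and 23 of those fits lost the call, named in the report where 1 library decided it. Of 71 values not past the test, 29 changed sign in some of 1412 fits, none beyond 0.121 on the log2 scale, and 22 fits gained a call. The cause of these changes was not tested. Replicate numbers did not pair the libraries: deviations of same-numbered libraries correlated at −0.21 to 0.15, and a replicate block left every count of members within 1.5 times of its value. The hearts could not be blocked, since their columns carry no replicate numbers.

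The following values changed sign. Col4a1 with IAMP-siR-2 in untreated CFs was −0.0152 with a mean of at least 1 CPM and −0.00047 with the compared groups alone. For IAMP-siR-2 against IAMP-siR-1, Col15a1 was −0.00853 in untreated CFs with a mean of at least 1 CPM and −0.000141 under IL-17 with the replicate block. The IL-17 interaction with IAMP-siR-1 for Col6a2 was −0.00252 with RLE factors, −0.00136 with a mean of at least 1 CPM and −0.00156 with DESeq2. That with IAMP-siR-2 for Col6a1 was −0.0116 with RLE factors, −0.00856 without filter, −0.00388 with a mean of at least 1 CPM, −0.000356 with counts divided by 6, −0.00075 with the replicate block and −0.0137 with DESeq2. For Col8a1 it was −0.000168 with RLE factors and −0.00236 with DESeq2, and for Col14a1 −0.00495 with RLE factors, −0.00179 without filter and −0.00676 with DESeq2. IL-17 against untreated Scrambled CFs gave 0.00677 for Col4a2 with the replicate block, 0.00698 for Col4a2 and 0.00237 for Col4a1 with the compared groups alone.

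Counts of members moved as follows. With IL-17 against untreated, 1 (Col18a1) rose with a mean of at least 1 CPM, with counts divided by 6 and with the compared groups alone. With the latter 2 settings 1 (Col15a1) fell. With IAMP-siR-2 and TGF-β, 0 rose with the compared groups alone. When 1 library was left out, members risen were 1 to 2 with IAMP-siR-2 in untreated CFs, 0 to 1 with IAMP-siR-1 and with IAMP-siR-2 under TGF-β, 0 to 1 with IL-17 alone (0 to 1 fallen), and 1 to 2 in the TGF-β interaction with IAMP-siR-1, where leaving out any of the 7 libraries named in the report for Col15a1 took away 1.

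Gene lists moved most with IL-17 alone. There collagen processing genes were 3 risen and 9 fallen with DESeq2, 2 and 2 with the compared groups alone and 0 and 2 with the replicate block, against 1 and 5. Basement membrane partners were 2 and 3 with the compared groups alone and 0 and 1 with the block, against 1 and 6. With IAMP-siR-2, other collagen chains that fell were 4 under IL-17 at a mean of at least 1 CPM, against 9, and partners that rose under TGF-β were 1 with the compared groups alone, against 3. Over all genes, DESeq2 called 302 higher and 445 lower of 33816 in the IL-17 interaction with IAMP-siR-1, against 190 and 263 of 21219 by edgeR. With IAMP-siR-2 DESeq2 called 389 lower, against 254 by edgeR, of the same numbers tested. As the numbers tested differ, these counts are not read as a difference between the methods. At 1.5-fold in place of 2-fold, 2 members were past the threshold upwards and 2 downwards with IAMP-siR-1 in untreated CFs. With IAMP-siR-2 there 2 were past it downwards, and with TGF-β in Scrambled CFs 1 was past it upwards. Shares over all genes at 1.5-fold are not given here, so these counts are not read as a result about the members.

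Leaving out 1 library also moved small values across 0. In untreated CFs Col4a1 with IAMP-siR-2 ran from −0.0182 to 0.0128, and Col15a1 between the siRNAs from −0.0538 to 0.0427. Under IL-17 Col12a1 with IAMP-siR-2 ran from −0.0393 to 0.0107 and Col15a1 between the siRNAs from −0.121 to 0.162. Under TGF-β Col4a2 ran from −0.0226 to 0.0584 with IAMP-siR-1, −0.0505 to 0.034 with IAMP-siR-2 and −0.0403 to 0.00152 between them, and Col8a1 between them from −0.0226 to 0.0293. In hearts the ranges were −0.0832 to 0.0291 for Col4a1, −0.0613 to 0.0597 for Col4a2, −0.113 to 0.120 for Col6a3, −0.0244 to 0.0678 for Col8a1, −0.208 to 0.0569 for Col14a1, −0.207 to 0.0262 for Col15a1 and −0.286 to 0.118 for Col18a1. With IL-17 in Scrambled CFs they were −0.0266 to 0.000512 for Col4a1, −0.0255 to 0.00686 for Col4a2 and −0.050 to 0.0027 for Col14a1. The IL-17 interaction with IAMP-siR-1 ran from −0.00208 to 0.0332 for Col4a1, −0.00999 to 0.0288 for Col4a2, −0.0345 to 0.0511 for Col6a2 and −0.132 to 0.0442 for Col12a1. With IAMP-siR-2 it ran from −0.0307 to 0.0203 for Col6a1, −0.00392 to 0.0632 for Col6a2, −0.0409 to 0.00922 for Col6a3, −0.0105 to 0.0441 for Col8a1, −0.0361 to 0.0401 for Col14a1 and −0.156 to 0.00845 for Col18a1, and the TGF-β interaction of Col18a1 with IAMP-siR-2 from −0.0364 to 0.164. Depth limits Col12a1 in hearts and Col6a3 in TGF-β CFs most, where counts were lowest.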
